A study of Rattus norvegicus with 6 samples.

Results

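Fn1, Dcn, Lum, Bgn, Sparc, Thbs1, Thbs2, Tnc, Vcan and Ncan encode proteins of the extracellular matrix, and 8 of these 10 genes were measured among 18166 genes. Thbs1 and Tnc had no probe set under a single symbol of their own and are not analysed here. The list holds genes of one function and was chosen by 2 measured values, the higher signals of Fn1 and Dcn after Ncoa3 was silenced. That difference is therefore given as a description, with no p-value, as are the differences of the other listed genes in the same comparison. Counts of these genes past the threshold of the fit over all genes are given beside the share of all genes, and nothing is read from them. Each of the 8 genes had 1 probe set.

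Primary hippocampal neurons from rat embryos of day 18 were profiled on 6 Affymetrix arrays, each with RNA in 1 colour. All cultures were kept in 10 µM FUDR, a nucleoside analogue used against dividing cells, received adeno-associated virus (1800000 infectious units per ml) at 4 days in vitro and gave RNA at 14 days in vitro. The virus carried a control short hairpin RNA (shRNA) on 3 arrays and an shRNA against Ncoa3, a coactivator of nuclear receptors, on the other 3. Arrays with the same number in their titles are taken as 1 experiment, which gives 3 experiments of 1 control and 1 Ncoa3 shRNA array. The comparison asks what changes in these neurons once Ncoa3 is silenced, and a single control and a single Ncoa3 shRNA are named in the labels. FUDR acts on dividing cells, so non-dividing glia and fibroblasts can stay in such cultures.

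The matrix is the network of proteins and sugars that cells secrete around themselves. Fibronectin links it to integrins on the cell surface, and decorin, lumican and biglycan are small leucine-rich proteoglycans that bind collagen fibrils and growth factors. Sparc and the thrombospondins are matricellular proteins, which signal to cells more than they build structure, and astrocytes release them during synapse formation. Versican and neurocan carry chondroitin sulphate, bind hyaluronan and are part of the matrix that surrounds brain neurons.

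The 2 groups of arrays appear to have been processed apart, which bears on each gene below. Array medians of the deposited log2 signals averaged 7.15 ± 0.0899 in the control group and 6.86 ± 0.0910 in the Ncoa3 group (SD, n = 3 each), and the median gene differed by -0.25. Of the 18166 genes, 22.5% had 1 identical value on all 3 control arrays, 22.4% on all 3 Ncoa3 shRNA arrays and 10.7% in both groups. Effects of such separate processing and of the shRNA cannot be told apart here, and no p-value below covers the former. Changes are therefore given after quantile normalization, which gives all 6 arrays 1 distribution of signal and sets the median change over all genes to 0.01, and the deposited difference stands beside them. A true change shared by most genes would be removed by this step. Ncoa3 itself was lower by this measure, at -0.97 ± 0.142 (SE), with 3 arrays in each group and an adjusted p of 0.00747 in limma's test. Its deposited difference was -1.26. Markers of neurons were bright on all arrays, with a mean over 9 genes of 12.43 to 12.51 in each group.

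Fibronectin had the same deposited signal on every array of a group. Fn1 stood at 8.27 on each of the 3 control arrays and at 8.64 on each of the 3 Ncoa3 shRNA arrays. The groups did not overlap, and the 3 experiments could not disagree, since a single value stands for each group. The deposited difference was 0.37 in each experiment. After quantile normalization it was 0.61, 0.64 and 0.70 in experiments 1, 2 and 3, a mean of 0.65 ± 0.0576 (SE) or 1.57-fold. The spread behind that SE came from the normalization and from other genes through limma's shared variance, since the deposited values of Fn1 have none.

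Decorin was higher with Ncoa3 shRNA in each experiment. Its deposited signal differed between arrays, except that the Ncoa3 shRNA arrays of experiments 2 and 3 shared 1 value. The deposited signal of Dcn was 10.42, 10.73 and 10.72 on the control arrays of experiments 1, 2 and 3, and 10.78, 11.02 and 11.02 on the Ncoa3 shRNA arrays. The lowest Ncoa3 shRNA array lay just above the highest control array, and within both groups experiment 1 was the lowest. The deposited differences by experiment were 0.35, 0.29 and 0.30. After quantile normalization they were 0.58, 0.50 and 0.48, with a mean of 0.52 ± 0.129 (SE) or 1.43-fold. The difference was thus close to constant over experiments, while the level was not.

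Lumican, whose gene lies next to Dcn with 0 protein-coding genes between them in RefSeq's GRCr8 annotation, varied more than any other of the 8 genes. Lum stood at 7.79, 7.79 and 8.60 in the deposited control values and at 8.25, 7.70 and 9.09 with Ncoa3 shRNA. The groups overlapped, and experiment 3 was the highest in both. The deposited difference was 0.46, -0.09 and 0.49 by experiment, so it was positive in experiments 1 and 3 and negative in experiment 2. After quantile normalization it was 0.70, 0.20 and 0.80, with a mean of 0.57 ± 0.398 (SE). The mean was of the size seen for Dcn, with a larger SE.

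Biglycan, the closest relative of decorin in the list, was not higher. The deposited signal of Bgn was 6.80, 6.80 and 7.20 with control shRNA and 6.54, 6.54 and 6.63 with Ncoa3 shRNA. These groups did not overlap, with control higher. After quantile normalization the difference was 0.03, 0.01 and -0.29 by experiment, a mean of -0.08 ± 0.0814 (SE), so that only experiment 3 stood away from 0. The 3 small leucine-rich proteoglycans therefore did not share a direction after normalization, at 0.52, 0.57 and -0.08, and in the deposited values they stood at 0.31, 0.29 and -0.36.

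**Figure D1:**
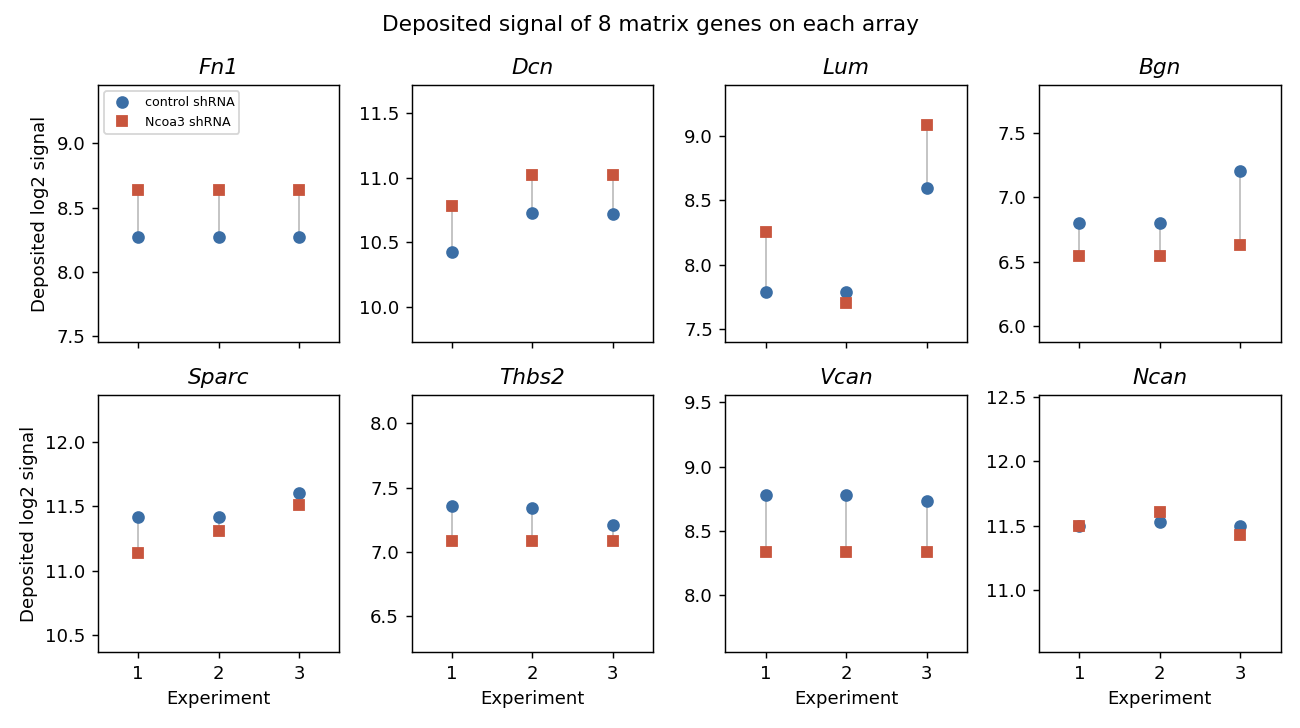
Deposited log2 signal (vertical axis, 2 log2 units in each panel) of the 8 matrix genes by experiment (horizontal axis), with circles for control shRNA and squares for Ncoa3 shRNA, 1 array each, and a grey line joining the arrays of an experiment. Fn1 shows 1 value per group, 8.27 and 8.64, Dcn is higher with Ncoa3 shRNA in each experiment, and Lum spans 7.70 to 9.09.

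Sparc, a secreted glycoprotein that astrocytes and vessel cells make, followed the experiment more than the shRNA. Its deposited signal was 11.42, 11.42 and 11.60 on the control arrays and 11.14, 11.31 and 11.52 on the Ncoa3 shRNA arrays. The groups overlapped and experiment 3 was the highest in both. The deposited difference was -0.16 and the quantile-normalized one 0.01 ± 0.124 (SE), with -0.11, 0.06 and 0.08 by experiment.

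Thrombospondin 2, an astrocyte-secreted protein that promotes synapse formation, had 1 deposited value on all Ncoa3 shRNA arrays. Thbs2 stood at 7.36, 7.34 and 7.21 with control shRNA and at 7.09 on each Ncoa3 shRNA array. The deposited groups did not overlap, with a difference of -0.22, but after quantile normalization it was 0.08 ± 0.0992 (SE) and the groups overlapped. The sign of the difference thus depended on the scaling, as it did for Sparc.

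Versican was the one measured gene of the list whose quantile-normalized groups did not overlap with control higher. Vcan stood at 8.78, 8.78 and 8.73 with control shRNA and at 8.34 on each Ncoa3 shRNA array. The deposited difference was -0.42. After quantile normalization it was -0.16, -0.14 and -0.14 by experiment, a mean of -0.14 ± 0.0563 (SE), or 1.11-fold lower.

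Neurocan, the lectican made mostly in the nervous system, had nearly equal deposited signal in the groups. Ncan stood at 11.50, 11.53 and 11.50 with control shRNA and at 11.50, 11.60 and 11.43 with Ncoa3 shRNA. These values overlapped. After quantile normalization the difference was 0.18, 0.24 and 0.11 by experiment, a mean of 0.18 ± 0.0486 (SE), and the groups did not overlap. The 2 lecticans thus stood on opposite sides of 0 after normalization.

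Promoter sequence is shown for Sparc, whose signal was the highest in experiment 3 in both groups, and for Vcan and Ncan, the lecticans that stood on opposite sides of 0. Of the 8 measured genes, 4 matched RefSeq's promoter table (build GRCr8), which are Sparc, Vcan, Ncan and Lum, and those of Lum and of a second Vcan start lie inside the annotated gene and are not printed. Fn1, Dcn, Bgn and Thbs2 had no entry. The 250 bases before the start are given 5′ to 3′ on the gene's strand, with capitals for a match to a motif searched on both strands.
Sparc, chr10:40038817-40039066, minus strand: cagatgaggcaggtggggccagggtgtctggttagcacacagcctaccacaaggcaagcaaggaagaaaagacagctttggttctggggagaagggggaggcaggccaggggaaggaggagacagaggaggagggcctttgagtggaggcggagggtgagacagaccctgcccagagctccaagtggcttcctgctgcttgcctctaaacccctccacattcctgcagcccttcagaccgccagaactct
Vcan, chr2:22595956-22596205, minus strand: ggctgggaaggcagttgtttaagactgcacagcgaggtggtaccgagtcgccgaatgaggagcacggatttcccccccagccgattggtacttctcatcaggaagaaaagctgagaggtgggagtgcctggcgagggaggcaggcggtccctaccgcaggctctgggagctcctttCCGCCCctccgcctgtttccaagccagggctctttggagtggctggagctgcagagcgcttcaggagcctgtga
Ncan, chr16:19335657-19335906, plus strand: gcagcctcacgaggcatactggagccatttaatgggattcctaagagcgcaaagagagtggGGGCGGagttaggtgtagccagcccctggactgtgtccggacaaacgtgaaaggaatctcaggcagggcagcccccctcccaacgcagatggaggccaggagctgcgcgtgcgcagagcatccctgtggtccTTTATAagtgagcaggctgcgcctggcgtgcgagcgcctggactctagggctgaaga
The motifs were the TATA box TATAAA, the GC box GGGCGG, the AP-1 site TGANTCA and the nuclear receptor half-site AGGTCA, and none of these overlapped in a printed sequence. Ncan held a GC box and, on the reverse strand, a TATA box whose first printed letter is at base -57 from the start of transcription. Vcan held a GC box on the reverse strand and Sparc held no match to the 4 motifs. A GC box was held by 30.5% of the 33469 promoters listed by RefSeq, a TATA box by 12.9%, the AP-1 site by 6.34% and the half-site by 14.1%, so these matches describe the letters only.

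Across the 8 genes, 2 passed limma's test as higher and 0 as lower after quantile normalization, where 10.5% of all genes passed as higher and 9.04% as lower. These 2 are Fn1 and Dcn, for which the list was chosen, so nothing is read from the count. Without an adjustment for the number of genes, 3 were higher and 1 lower at p under 0.05, where 3257 and 2854 of all 18166 genes were. With the experiment as a block 3 passed as higher (Ncan beside Fn1 and Dcn) and Vcan as lower, against 20.8% and 18.6% of all genes. In the deposited values Fn1 passed as higher and Thbs2 and Vcan as lower, where 3.97% and 43.3% of all genes did. The quantile-normalized groups did not overlap for 3 higher genes and 1 lower gene, where this held for 21.5% and 19.0% of all genes. In the deposited values it held for 2 higher and 3 lower genes, against 5.36% and 55.6%. The median change over the 8 genes was 0.13, beside 0.01 over all genes, and -0.08 beside -0.25 in the deposited values.

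Leaving out an experiment altered these counts. Without experiment 1 or without experiment 2, 0 of the 8 genes passed limma's adjusted test in either direction, with 2 higher at an unadjusted p under 0.05 in both fits, and 1.23% and 0% of all genes passed (3060 and 3071 genes at an unadjusted p under 0.05). Without experiment 3, Fn1 and Ncan passed as higher and Vcan as lower, while 24.4% and 21.6% of all genes did. Over the 9 fits that left out 1 array or 1 experiment the change of Dcn ranged from 0.41 to 0.61, and that of Fn1, with 1 deposited value per group, could hardly move. Dcn was past the threshold in the fit without the control array of experiment 3 and in none of the others. The change of Lum ranged from 0.19 to 0.88 over the same fits, the lowest without the Ncoa3 shRNA array of experiment 3 and the highest without that of experiment 2.

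**Figure D2:**
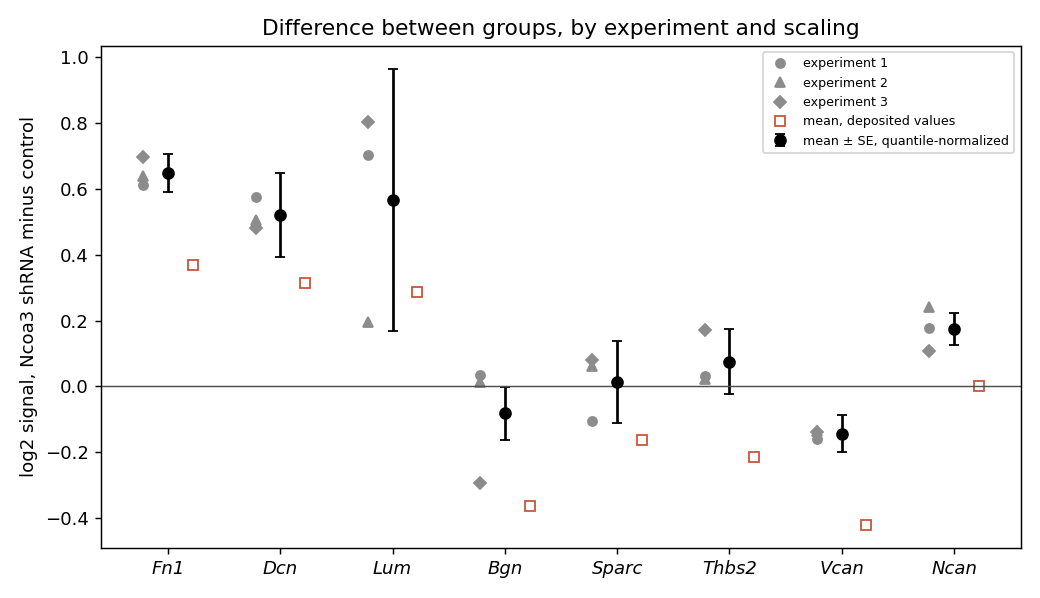
Difference in log2 signal (vertical axis, Ncoa3 shRNA minus control) for the 8 matrix genes, with grey symbols for each experiment and black circles with bars for the mean ± SE (n = 3 per group), all quantile-normalized, and open squares for the mean difference of the deposited values. Fn1 at 0.65 and Dcn at 0.52 show 3 close experiments each, Lum at 0.57 shows scattered ones, and each open square lies below its black circle.

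The difference between the 3 experiments is a comparison that the choice of genes did not use. It was tested in the deposited values with limma's moderated F-test after allowing for the group, and 0 of the 8 genes passed (2 at an unadjusted p under 0.05), where 1.91% of all genes passed. The nearest was Dcn, with experiment means of 10.60, 10.87 and 10.87 (limma's adjusted p = 0.0714). Lum had means of 8.02, 7.75 and 8.84 (0.160) and Sparc 11.28, 11.36 and 11.56 (0.232). After quantile normalization Dcn passed (adjusted p = 0.0484), Lum stood at 0.0506, Sparc at 0.0680 and Thbs2 at 0.0783, and 18.8% of all genes passed. With array medians subtracted Dcn (0.0390) and Lum (0.0323) passed, where 13.4% of all genes did. The call for Dcn and Lum thus depended on the scaling.

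Lum, Sparc and Dcn were higher in experiment 3 in both groups after quantile normalization. For Dcn experiment 2 stood close to experiment 3, at 10.59 and 10.67 with control shRNA and 11.09 and 11.15 with Ncoa3 shRNA. Its experiment 1 stood lower, at 10.28 and 10.85. In experiment 3, Lum was above the mean of the other experiments by 0.80 with control shRNA and 1.15 with Ncoa3 shRNA. Sparc was above it by 0.24 and 0.34, and Dcn by 0.24 and 0.18, all quantile-normalized. Experiment 3 was the highest in both groups for 3 of 8 genes, where this held for 17.5% of all genes. In the deposited values it held for 3 of 8 as well, with Bgn in place of Dcn, against 16.5%. Fn1 and Vcan differed little, by -0.03 and 0.04 and by 0.00 and 0.01. For Fn1 this was set in advance, since all arrays of a group share 1 deposited value, as the Ncoa3 shRNA arrays do for Vcan. After quantile normalization Thbs2 stood at -0.29 and -0.14, and in the deposited values at -0.14 and 0.00, where all Ncoa3 shRNA arrays share 1 value.

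Astrocyte markers were also higher in experiment 3. The mean quantile-normalized signal of 9 astrocyte markers was 9.15, 9.24 and 9.50 on the control arrays and 9.05, 9.20 and 9.50 on the Ncoa3 shRNA arrays. From experiment 1 to experiment 2 this mean rose in both groups. Dcn went from 10.28 to 10.59 with control shRNA and from 10.85 to 11.09 with Ncoa3 shRNA. Sparc stood level with control shRNA (11.32 and 11.31) and went from 11.21 to 11.37 with Ncoa3 shRNA. Lum stood level with control shRNA (7.67 and 7.68) and went from 8.37 to 7.88 with Ncoa3 shRNA. Of these astrocyte markers 7 were the highest in experiment 3 in both groups, where this held for 17.5% of all genes. It also held for 4 of 9 neuron, 3 of 10 microglia and 2 of 7 oligodendrocyte lineage markers. For fibroblast, mural and endothelial markers it held for 1 of 7, 1 of 7 and 0 of 6. In limma's F-test between experiments 7 passed after quantile normalization (18.8% of all genes), and 0 of 9 in the deposited values (1.91%; adjusted p from 0.0802 for Slc4a4). The glutamate transporter gene Slc1a3 stood at 10.20, 10.35 and 10.61 with control shRNA and at 10.02, 10.30 and 10.61 with Ncoa3 shRNA. The intermediate filament gene Gfap stood at 9.06, 9.22 and 9.49 and at 9.15, 9.38 and 9.78. In bulk RNA a larger number of such cells and more RNA per cell cannot be told apart. The part of astrocytes in the levels of Lum, Sparc and Dcn was not tested.

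**Figure D3:**
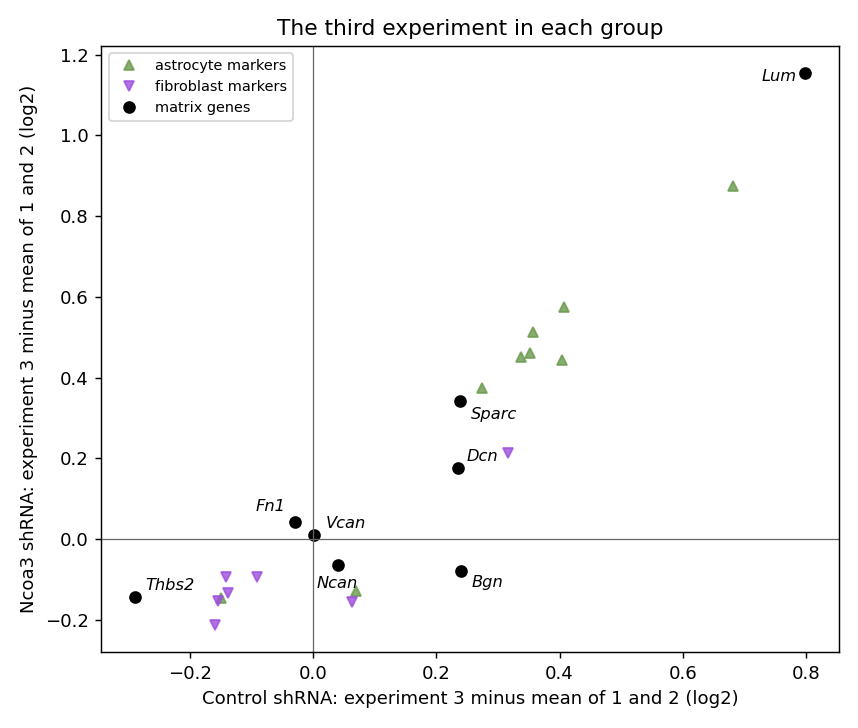
Quantile-normalized log2 signal of experiment 3 minus the mean of experiments 1 and 2, with control shRNA on the horizontal axis (3 arrays) and Ncoa3 shRNA on the vertical axis (3 arrays), for the 8 matrix genes (circles), 9 astrocyte markers (upward triangles) and 7 fibroblast markers (downward triangles). Lum lies at 0.80 and 1.15, Sparc and Dcn lie with most astrocyte markers in the upper right, and Fn1, Vcan and Ncan lie near 0. Deposited values are shared by all arrays of a group for Fn1 and by the Ncoa3 shRNA arrays for Vcan. Of the 7 fibroblast markers 1 was the highest in experiment 3 in both groups.

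Quantile-normalized mean marker levels of other cells that make matrix differed little between the groups. The mean level of the 9 astrocyte markers was 9.15 to 9.50 with control shRNA and 9.05 to 9.50 with Ncoa3 shRNA, and 1 of 9 rose (Fgfr3 at 0.29, limma's adjusted p = 0.0410) against 19.5% of all genes in both directions together. Fgfr3 stood at 0.01 in the deposited values and did not pass there (0.141). That of 7 fibroblast markers was 6.97 to 7.02 with control shRNA and 6.90 to 6.99 with Ncoa3 shRNA, lower with Ncoa3 shRNA in each experiment, and 1 fell, Dpep1 at -0.38 (0.00990), with -0.67 in the deposited values. The fibrillar collagen genes Col1a1 at -0.21 (0.272), Col1a2 at 0.13 (0.247) and Col3a1 at 0.17 (0.160) did not pass. Of 7 mural cell markers, at 7.29 to 7.31 and 7.28 to 7.38, Tagln rose by 0.31 (0.0472), with a deposited difference of 0.04 that did not pass (0.800). Of 6 endothelial markers Flt1 fell by 0.37 (0.0176), with -0.66 in the deposited values (1.01e-08), so little replicate spread of its own lies behind its call. The mean of these 6 was 6.66, 6.70 and 6.56 with control shRNA and 6.64, 6.64 and 6.53 with Ncoa3 shRNA, lower in each experiment. On the deposited scale the fibroblast means were 7.11 to 7.19 and 6.80 to 6.85, the endothelial means 6.76 to 6.80 and 6.45 to 6.49 and the mural means 7.39 to 7.51 and 7.19 to 7.22, so none of these ranges overlapped and all differed by about as much as the median gene. With the experiment as a block 1 astrocyte marker was higher and 2 lower, 2 and 2 fibroblast markers, 2 and 2 endothelial markers, and 1 and 1 mural cell markers, where 39.3% of all genes passed. Their part in the higher Fn1 and Dcn was not tested.

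Microglia and oligodendrocyte lineage markers passed the test in both directions. Of 10 microglia markers 3 rose and 1 fell, where 19.5% of all genes passed, and these were Cx3cr1 at 0.99 (limma's adjusted p = 0.0205), C1qb at 0.46 (0.0111), Aif1 at 0.43 (0.0113) and Ptprc at -0.21 (0.0462). Their mean level was 6.22 to 6.25 with control shRNA and 6.35 to 6.52 with Ncoa3 shRNA, so these ranges did not overlap. The deposited mean was 6.32, 6.33 and 6.48 with control shRNA and 6.16, 6.21 and 6.48 with Ncoa3 shRNA, which overlap. There 1 microglia marker passed as higher and 3 as lower, where 3.97% and 43.3% of all genes did. Cx3cr1 (0.109) and C1qb (0.260) did not pass there. Aif1 stood at 0.15 (0.00645) and Ptprc at -0.48 (1.22e-08), so little replicate spread of its own lies behind the call of Ptprc. With array medians subtracted 1 passed in each direction, where 21.5% of all genes passed in both directions together. Of 7 oligodendrocyte lineage markers 1 rose, Pdgfra at 0.32 (0.0252), and 2 fell, Sox10 at -0.47 (0.00500) and Mog at -0.26 (0.0228). In the deposited values Pdgfra stood at only 0.04 and still passed (0.000132), so little replicate spread of its own lies behind its call. Their mean level was 7.81 to 7.93 and 7.82 to 7.92. With the experiment as a block 4 microglia markers were higher and 2 lower, 2 and 2 oligodendrocyte lineage markers, and 0 and 1 neuron markers, where 39.3% of all genes passed. The part of microglia in the differences of the matrix genes was not tested.

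Other genes of the matrix and of its receptors and enzymes moved in both directions. Over the 8 lists of such genes, 142 of 159 were measured, of which 14 rose and 12 fell, together 18.3%, where 19.5% of all genes passed. The median change was 0.06, beside 0.01 over all genes. With the experiment as a block 38 rose and 28 fell (39.3% of all genes passed), and 8 stood higher and 72 lower on the deposited scale (3.97% and 43.3% of all genes). By list, the block gave 7 higher and 5 lower for the other proteoglycans, 6 and 3 for the matricellular and adhesive glycoproteins, 3 and 2 each for the basement membrane and the elastic fibre, and 5 and 6 for the receptors. It gave 5 and 5 for the remodelling enzymes, 4 and 3 for the TGF-beta pathway, and 5 and 2 for chondroitin and dermatan sulphate synthesis. Without experiment 1 or without experiment 2, 0 of them passed, where 1.23% and 0% of all genes did. At an unadjusted p under 0.05 there were 24 and 20 of them, and 3060 and 3071 of all genes. Without experiment 3, 40 were higher and 28 lower, where 24.4% and 21.6% of all genes were.

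Among 19 other matrix proteoglycans and hyaluronan genes, 3 rose and 3 fell, together 31.6%, where 19.5% of all genes passed. Brevican, the lectican of mature brain matrix, was the largest of the rises. Bcan rose by 0.25 ± 0.0594 (SE; limma's adjusted p = 0.0336), although its deposited values, 8.60, 8.58 and 8.52 with control shRNA and 8.54 on each Ncoa3 shRNA array, differed by -0.03. Ogn, a small leucine-rich proteoglycan like decorin, fell by 0.45 ± 0.0719 (SE; adjusted p = 0.0102), with 6.69 on each control array and 5.97 on each Ncoa3 shRNA array. The other genes that passed, named after their values were seen, were the hyaluronan synthase gene Has2 at -0.40, the link protein gene Hapln1 at -0.33, Aspn at 0.25 and Omd at 0.11. Ogn, Hapln1 and Omd each had 1 deposited value per group, so no replicate spread of their own lies behind their calls. The direction of Omd and Aspn flipped with the scaling, to -0.21 and -0.05 in the deposited values.

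Of the other structural lists, the basement membrane held the largest quantile-normalized change among the genes that passed. The counts below stand beside 19.5% of all genes that passed. The basement membrane gene Nid2 (nidogen 2) rose by 0.67 ± 0.0621 (SE; limma's adjusted p = 0.00176), with 7.58 on each control array and 7.96 on each Ncoa3 shRNA array, and was the 1 of 10 basement membrane genes that passed. Of 16 other matricellular and adhesive glycoprotein genes 2 rose and 0 fell, the tenascin gene Tnn at 0.51 (0.0198) and, named after its values were seen, the vitronectin gene Vtn at 0.44 (0.0129). In the deposited values Tnn stood at 0.23 and Vtn at 0.16. Of 10 elastic fibre genes the microfibril gene Mfap2 rose by 0.55 (0.0203), and the fibulin family gene Efemp1 fell by 0.51 (0.00690). Efemp1, like Nid2, had 1 deposited value per group, 7.21 with control shRNA and 6.41 with Ncoa3 shRNA. No replicate spread of their own lies behind these 2 p-values. Fbln2, named after its values were seen, stood at -0.35 (0.00882).

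Of 27 receptor genes of these proteins 2 rose and 2 fell, together 14.8%, where 19.5% of all genes passed. The subunits of the main fibronectin receptor, Itga5 and Itgb1, stood at 0.01 (limma's adjusted p = 0.954) and -0.01 (0.934). The thrombospondin receptor genes Cacna2d1 and Cd47 stood at -0.31 (0.462) and -0.15 (0.241), and Lrp1, an endocytic receptor of several matrix proteins, at 0.05 (0.779). In the deposited values Itga5 and Itgb1 were lower, by -0.27 (0.00544) and -0.26 (0.000178), close to the offset of the median gene. Sdc2, a heparan sulphate proteoglycan of dendritic spines, fell by 0.49 ± 0.0873 (SE; 0.0142), with 11.31, 11.23 and 11.31 on the control arrays and 10.64, 10.47 and 10.69 on the Ncoa3 shRNA arrays. The integrin gene Itgb6 rose by 0.46 (0.00761), and Itga7 at 0.36 and Itga2 at -0.31, named after their values were seen, passed as well. In the deposited values Itgb6 stood at 0.18, Itga7 at 0.08 and Itga2 at -0.59. Itgb6 and Itga2 each had 1 deposited value per group, so no replicate spread of their own lies behind their calls.

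Enzymes that build chondroitin and dermatan sulphate chains, which decorin, biglycan, versican and neurocan carry, went both ways. Csgalnact1, which starts the chondroitin chain, fell by 0.61 ± 0.0671 (SE; limma's adjusted p = 0.00297), with 8.52 on each control array and 7.66, 7.66 and 7.60 on the Ncoa3 shRNA arrays. Ust, a sulphotransferase of these chains, rose by 0.51 ± 0.0571 (SE; 0.00321), from 10.45, 10.35 and 10.32 to 10.69, 10.65 and 10.65. Of 18 such genes 2 rose and 1 fell, together 16.7%, where 19.5% of all genes passed. The other that rose was the chondroitin polymerase gene Chpf at 0.40 (0.0271), named after its values were seen.

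Of 25 genes for matrix proteases, their inhibitors and crosslinking enzymes 2 rose and 2 fell, together 16%, where 19.5% of all genes passed. Plat, the tissue plasminogen activator gene, rose by 0.28 (limma's adjusted p = 0.0279), with a deposited difference of 0.01, and Adamts5, a protease that cuts versican and other lecticans, fell by 0.35 (0.0232). The lysyl oxidase genes Lox at 0.21 and Loxl4 at -0.33 passed too and were named after their values were seen. Lox stood at -0.06 in the deposited values. TGF-beta, which drives fibronectin expression in many cells and is bound by decorin, had 17 measured pathway genes. Of these 1 rose and 2 fell, together 17.6%, against the same 19.5%. Ltbp1, which holds latent TGF-beta in the matrix, rose by 0.51 (0.00545), the ligand gene Tgfb2 fell by 0.31 (0.0149), and Ltbp2, named after its values were seen, stood at -0.30 (0.0370). In the deposited values Ltbp1 stood at 0.23 (1.69e-07) and Tgfb2 at -0.56 (0.00298). So small a p at that difference means that little replicate spread of its own lies behind the call of Ltbp1.

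**Figure D4:**
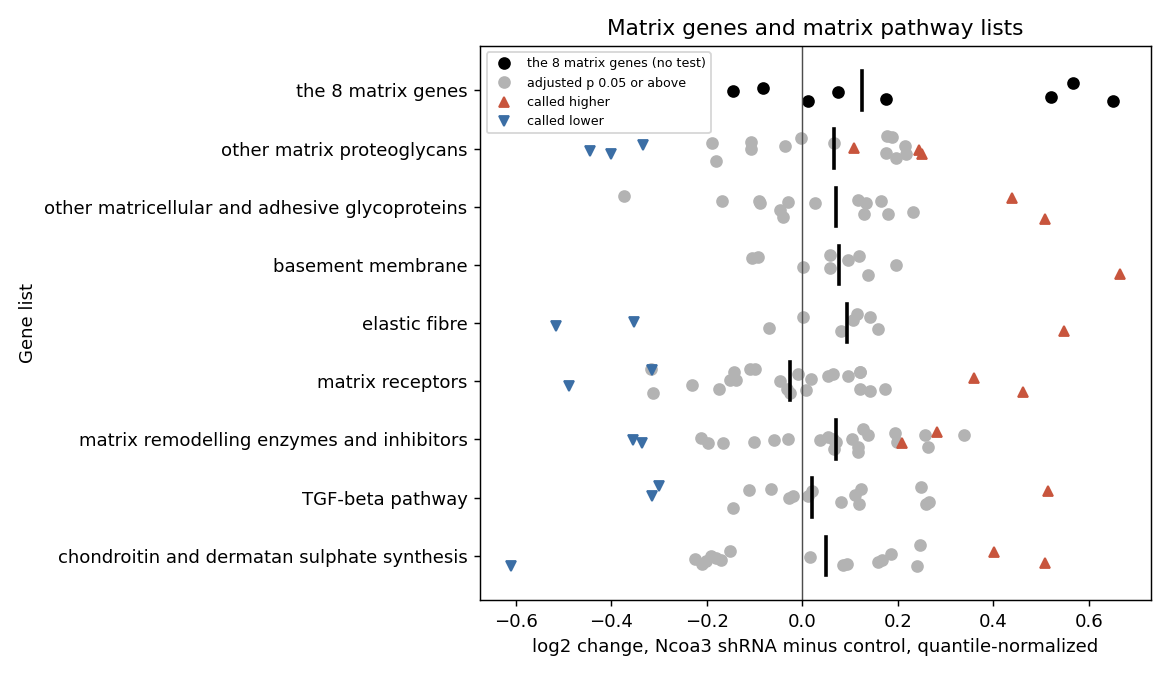
Quantile-normalized log2 change (horizontal axis, Ncoa3 shRNA minus control) of each measured gene in the 8 matrix genes and in 8 lists of related genes (vertical axis), with black circles for the 8 genes, upward triangles for related genes that passed limma's test as higher, downward triangles for those lower, grey circles for the rest and a black bar for each median. Points are spread vertically for legibility only, and each list's median lies within 0.13 of 0 while single genes reach 0.67 and -0.61.

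Several of the genes that passed were dim, and their calls rest on small signals. The median signal of 1218 olfactory and vomeronasal receptor genes, which neurons of the hippocampus are not known for, was 4.78, and their 95th percentile was 6.95. Ogn, Omd, Aspn, Hapln1, Tnn, Itga2, Itgb6, Lox and Ltbp1 had mean deposited signals below that percentile in both groups, as did the markers Flt1, Pdgfra, Aif1, Cx3cr1, C1qb and Ptprc. The 8 matrix genes except Bgn were above it in both groups.

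The genes whose pattern over the 6 arrays was nearest to those of Fn1 and Dcn are named as a description, and their like changes and like spread within groups follow from how they were picked. Likeness was the Euclidean distance between quantile-normalized log2 signals after subtraction of each gene's mean, over genes brighter than the median gene. Nearest to Fn1 were Esrrg (distance 0.0911), Slc35c1 (0.110), Kcnk12 (0.119), Nppc (0.143) and Aopep (0.145), with changes of 0.58, 0.62, 0.62, 0.56 and 0.54. Nearest to Dcn were Drd5 (0.167), Cfap77 (0.177), Pdlim7 (0.206), Pla2g15 (0.229) and Abhd1 (0.236), with changes of 0.47, 0.47, 0.45, 0.50 and 0.54.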

How the data were processed

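The authors deposited log2 signals, 1 value for each probe set on each array. The submitters' processing notes name Affymetrix Expression Console. How it summarised and normalized the arrays, its version and the build are not given in the sources. Gene symbols came from the platform annotation (18511 of 36685 with 1 symbol, 575 with several, 17599 unlisted), and the brightest per gene was kept. Quantile normalization ran over all probe sets. The test was limma 3.58.1, run in R 4.3.3 (eBayes with trend, two-sided, Benjamini-Hochberg over all genes, adjusted p under 0.05). Experiments were tested by the moderated F-test with the group in the model. The fits were tested on simulated data.

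The titles number the arrays of each group from 1 to 3, and arrays with the same number are taken as 1 experiment. Deviations from the group means correlated within experiments at r = 0.75, 0.56 and 0.80, and at -0.76 to 0.54 between arrays of different experiments, the highest for control array 2 with Ncoa3 array 1. The pairing is taken from the labels, and blocked counts stand beside the counts of the 8 genes and of each list. Deposited values shared within a group make replicate spread too small. The labels do not say how the cultures of an experiment were separated.

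The members and lists were chosen with earlier results of these data known. Genes named were the measured members, the largest called rise and fall of each list with receptors of members, the called markers, and the 5 nearest genes to Fn1 and Dcn. Lists were described by counts and medians, with no set test.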

Additional observations from a re-analysis of the deposited data

How the results depend on the processing

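The number of the 8 matrix genes past the test as higher was 2, and 3 with array medians subtracted or with the replicate block (Ncan beside Fn1 and Dcn), 1 in the deposited values or when only genes above the median signal were tested, and 0 to 2 over the fits that left out an array or an experiment. As lower it was 0, and 2 in the deposited values, 1 with the replicate block, 2 in the deposited values with the block (an alternative chosen after seeing the data), and 0 to 1 over the fits with arrays left out. Over all genes 3548 passed, against 8579 in the deposited values, 7147 with the block, 10932 with both, 433 of the genes above the median signal, and 0 to 8354 with arrays or experiments left out. Over the 8 lists of related genes 14 rose and 12 fell, against 8 and 72 in the deposited values, 38 and 28 with the block, and 0 to 40 and 0 to 28 with an experiment left out. Between experiments 0 of the 8 genes passed, against 1 after quantile normalization, 2 with array medians subtracted and 1 among genes above the median signal. For all genes these counts were 347, 3411, 2440 and 1493, and 0 with any experiment left out (874 to 4576 at an unadjusted p under 0.05). The change of Bcan reversed to -0.0264 in the deposited values. The cause of these differences was not tested. Averaging probe sets or leaving out the variance trend changed no count of the 8 genes. No alternative turned the sign of Fn1 or Dcn. That adds no evidence, since the list was chosen for their rise and Fn1 had 1 deposited value per group. The number of arrays limits precision.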
